A study of Sus scrofa with 24 samples.

Results

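Chromatin regulators are proteins that write, remove or read chemical marks on histones and DNA, or that slide and evict nucleosomes. Many of them are long genes with many exons, and some of those exons can be joined backwards, the end of a later exon to the start of an earlier one, which gives a covalently closed circular RNA (circRNA). A circRNA is counted by the reads that cross this back-splice junction, and its count does not report the level of the linear mRNA of the same gene, which was not analysed here. The roles given below are known mainly from the human and mouse proteins.

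The circRNAs described here were those whose host gene symbol begins with KDM, KMT2, SETD, CHD, ARID, SMARC, BRD, HDAC, KAT, PHF, JMJD, BAZ, MBD or TET, with KMT2E, CHD2, ARID1B and SMARCC1 (31 circRNAs) left out by the rule. A host gene was the Sscrofa11.1 RefSeq gene on the same strand with an exon end within 1 base of each back-splice end. This gave 74 circRNAs of 40 host genes, out of 3000 circRNAs in the table, of which 2848 were assigned to 1675 host genes. Of the 40 genes, 19 had 1 circRNA, 12 had 2, 6 had 3, 2 had 4 (CHD7 and SMARCA5) and 1, KMT2C, had 5. The label matched the known roles with 2 exceptions. KATNBL1, with 2 circRNAs, is a katanin-like protein of microtubules caught by its first letters, and SETD3 is known as a methyltransferase of actin rather than of histones. No filter on low counts was applied, so all 74 entered every test.

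The samples were spleens of healthy Meishan pigs, an indigenous Chinese breed, taken at 8 ages named by the day of life (1d, 7d, 14d, 21d, 28d, 35d, then 120d and 180d), with 3 pigs and 3 libraries at each stage and no treatment in any group. The question was how circRNAs change as the spleen develops, with 1d as the reference. The table held between 16273 and 87867 back-splice reads per library, and the totals were lowest at 1d (16273 to 23752) and highest at 120d (71092 to 87867), so age and depth moved together. Values below are normalized counts, the count divided by the library's effective size (TMM) and scaled to the geometric mean of all libraries, and they carry only the precision that these depths allow. The share of valid bases was under 0.96 in 7 libraries, which were 1 of 21d, 2 of 35d, 2 of 120d and 2 of 180d. Where a call ended without them is stated for named circRNAs, against 1d and with age, and for the summed slopes of member genes. For the test between any stages, member genes against 1d and the further gene lists, only the number of calls is given.

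The 5 circRNAs that followed age are shown by their junctions, since the junction is what was counted, and 3 of them stand beside a rarer circRNA of the same gene that shares one of its ends. Sequences are from RefSeq (Sscrofa11.1), 5′ to 3′. Lower case marks the last 15 bases of the last exon of the circle and capitals the first 15 bases of its first exon.
KDM7A circRNA_19534, exons 15 to 16, chr18:9651790-9652810, plus strand: aattccagtcaaaagGGTTTTTAACAAGTG
KDM7A circRNA_19533, exons 12 to 16, chr18:9647842-9652810, plus strand: aattccagtcaaaagGAGGAAAACGGCAAA
PHF21A circRNA_20634, exons 4 to 8, chr2:16373975-16389509, plus strand: ttgagtgagaaacagGGAGCAAGAGAGCTG
PHF21A circRNA_20639, exons 6 to 8, chr2:16381255-16389509, plus strand: ttgagtgagaaacagCTGCAGCGAGAAGAG
BAZ2B circRNA_15831, exons 25 to 26, chr15:66292955-66299872, minus strand: gaaaaactgagtaaaGCTCAGAATCATTCA
BAZ2B circRNA_15829, exons 25 to 27, chr15:66291710-66299872, minus strand: tggagagtggtgaagGCTCAGAATCATTCA
CHD8 circRNA_33804, exons 26 to 28, chr7:77769110-77771399, plus strand: gaccaagatgatgagTGAGATTGACATATG
KDM4C circRNA_03434, exons 6 to 8, chr1:215371012-215389275, minus strand: aaagttgctaaattgGTATGCAATACCCCC
The KDM7A and PHF21A pairs share the lower-case bases of the junction and differ in the exon they return to, while the BAZ2B pair returns to the same exon from different last exons.

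With age, 5 of the 74 circRNAs rose and 0 fell. The 5 came from KDM7A, PHF21A, CHD8, KDM4C and BAZ2B, and the test was a slope on log2 age in 1 edgeR quasi-likelihood fit over all libraries, called at an adjusted p under 0.05 over all 3000 circRNAs. Of all circRNAs 16.5% were called in this test, 10.7% higher and 5.77% lower with age, against 6.76% of these 74. At an unadjusted p under 0.05, 13 of the 74 were higher and 2 lower with age (20.3%, against 30.4% of the table). By DESeq2, which called 622 of the 3000, 5 rose (with KMT2A circRNA_37216 in place of BAZ2B) and 2 fell, SETD3 circRNA_34466 and SETD2 circRNA_09413. The test for a difference between any stages called 5 of the 74, the same 5 circRNAs, against 8.97% of the table. Against 1d, 3 were called higher at 120d (4.63% of the table higher, 6.1% in either direction) and 3 at 180d (5.9% higher, 9.3% in either direction), with a further minimum of 1 on the log2 fold change. These were KDM7A, CHD8 and KDM4C at both stages. Earlier stages gave 1 call at 21d (CHD8, 0.933% of the table) and 1 at 35d (KDM7A, 2.17%). There was no call at 7d (0% of the table), at 14d (0.0667%) or at 28d (1.57%). At an unadjusted p under 0.05 there were 3 of the 74 at 7d (9.47% of the table), 4 at 14d (8.57%) and 8 at 28d (12.9%), and DESeq2 also called 0 at these 3 stages. By the adjusted p alone, whatever the size of the change, 4 were higher (5.23% of the table) and 0 lower (1.67%; 0 at an unadjusted p under 0.05 and 0 by DESeq2) at 120d, and 4 were higher (6.5%) and 1, SETD3, lower (3.7%) at 180d.

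**Figure D1:**
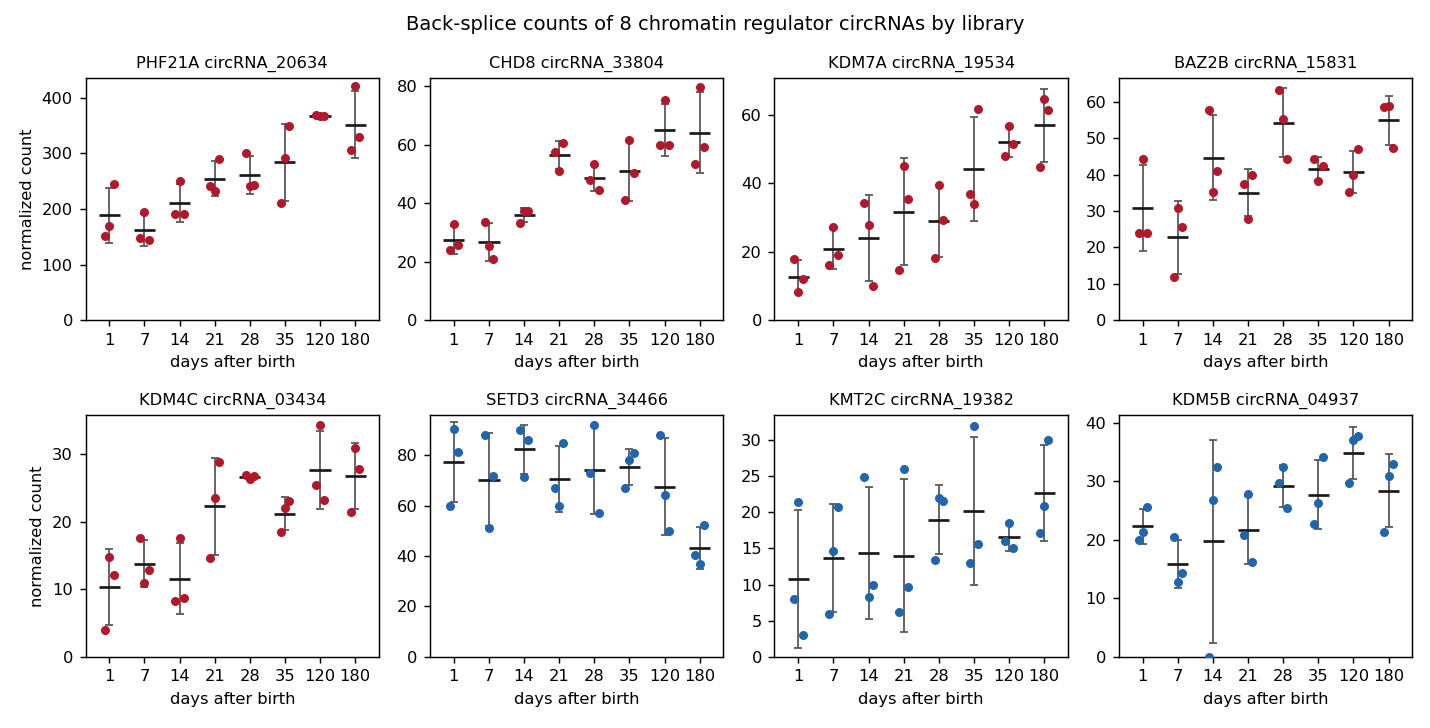
Normalized back-splice counts of 8 circRNAs (y axes, each from 0) against days after birth (x axis, stages evenly spaced), with 1 point per library and the mean and SD of 3 libraries per stage. Red marks an adjusted p under 0.05 for the age slope and blue the rest. KDM7A lay between 44.8 and 64.7 at 180d, above every 1d library. The 3 SETD3 libraries lay together below those of 1d at 180d only, on the TMM scale. With clean reads as the depth the SETD3 change at 180d had the opposite sign and was not called (log2 fold change 0.26, adjusted p = 0.582).

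Histone demethylases were the most numerous class, with 17 circRNAs of 10 genes, and 14 of the 17 slopes were positive, as were 58.9% of those in the table. KDM7A removes methyl groups from H3K9 and H3K27, marks of silent chromatin. Its circRNA_19534 (247 nt over 2 coding exons) had 48.0, 56.8 and 51.3 normalized counts at 120d and 44.8, 64.7 and 61.5 at 180d, against 17.9, 8.23 and 12.1 at 1d. No library of 120d or 180d overlapped 1d. The 1d mean of 12.7 ± 4.88 was followed by 31.7 ± 15.6 at 21d, then 44.2 ± 15.2 at 35d, and finally 57.0 ± 10.7 at 180d (SD, n = 3), and each stage mean was above the one before except at 28d. The log2 fold change was 2.05 ± 0.39 at 120d (SE, adjusted p = 0.000465), 2.19 ± 0.40 at 180d (adjusted p = 0.00012422) and 1.82 ± 0.40 at 35d (adjusted p = 0.00669). The slope was 0.31 ± 0.04 log2 per doubling of age (adjusted p = 4.58e-07). The 35d call was lost without replicate 2 of 1d (adjusted p = 0.0644) or replicate 3 of 35d (0.0573) and with the valid-base share as a covariate (0.0871). Without the 7 libraries of low valid-base share the 35d call (0.357) and the 180d call (0.0699) were both lost.

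KDM4C removes methyl groups from H3K9 and H3K36. Its circRNA_03434 (292 nt, exons 6 to 8) had 25.4, 34.2 and 23.2 normalized counts at 120d and 21.3, 30.9 and 27.7 at 180d, against 3.98, 14.8 and 12.1 at 1d. The old and the 1d libraries did not overlap. The stage means between them were 11.5 ± 5.24 at 14d, 22.3 ± 7.17 at 21d and 26.6 ± 0.288 at 28d, none of which passed the test against 1d (adjusted p = 0.981, 0.243 and 0.0819). The log2 fold change was 1.37 ± 0.40 at 120d (adjusted p = 0.0252) and 1.33 ± 0.41 at 180d (adjusted p = 0.0248), with a slope of 0.20 ± 0.05 (adjusted p = 0.00171). Both calls against 1d were lost without replicate 1 of 1d (adjusted p = 0.172 at 120d and 0.165 at 180d), the 120d call without its replicate 2 (0.104), and the 180d call without its replicate 2 (0.0985) or 3 (0.058). Without the libraries of low valid-base share the adjusted p was 0.294 at 120d, 0.494 at 180d and 0.0901 for the slope, and with all libraries thinned to the lowest total 0.231, 0.205 and 0.0584. Both calls against 1d were also lost with table totals as the depth (0.0928 and 0.0801) and with the valid-base covariate (0.208 and 0.0669), and the 120d call under DESeq2 (0.0544) and with DESeq2 size factors (0.0547).

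The other demethylase circRNAs did not pass the test. KDM5B circRNA_04937 (exons 2 to 4, from a demethylase of H3K4) had 29.7, 37.1 and 37.8 normalized counts at 120d and 21.3, 30.9 and 33.0 at 180d, against 19.9, 21.4 and 25.6 at 1d, and was listed at 0 in replicate 1 of 14d. Its 120d libraries lay above those of 1d while its 180d libraries overlapped them, and its slope of 0.11 ± 0.05 had an adjusted p of 0.143. KDM5A, a related H3K4 demethylase, gave 3 circRNAs, of which circRNA_28825 had 30.9 ± 8.51 normalized counts at 180d and 23.9 ± 4.06 at 1d, with overlapping libraries. Summed over the class, the demethylase circRNAs had 240 ± 16.6 normalized counts at 120d and 234 ± 22.2 at 180d, against 153 ± 25.0 at 1d. This sum includes KDM7A circRNA_19534 and KDM4C circRNA_03434. The median log2 fold change of the class was 0.14 at 120d and 0.37 at 180d, against 0.26 and 0.20 in the whole table.

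PHF21A, a PHD finger protein of the LSD1-CoREST complex that binds unmethylated H3K4, gave the most abundant circRNA of the 74. Its circRNA_20634 ranked 5 of 3000 in the table, with a mean of 260 normalized counts over the 24 libraries. It had 368.2, 366.5 and 367.6 at 120d and 305.3, 420.5 and 330.0 at 180d, against 151.3, 169.6 and 244.1 at 1d. No library of 120d or 180d overlapped 1d, and the stage means were lowest at 7d (162 ± 28.5) and highest at 120d (367 ± 0.844). The slope was 0.15 ± 0.02 per doubling of age (adjusted p = 3.01e-06). The log2 fold change of 0.96 ± 0.19 at 120d (adjusted p = 0.000465) and of 0.90 ± 0.19 at 180d (adjusted p = 0.000739) stayed under the minimum of 1, and without replicate 3 of 1d it was 1.22 at 120d and 1.18 at 180d. Without the libraries of low valid-base share the adjusted p at 180d was 0.254. Only 153 of its 395 nt are coding in the annotation, the rest lying outside the coding sequence. The other PHD finger genes, PHF14 and PHF20, gave circRNAs with stage means of at most 7.21 ± 2.63, and all 6 slopes of the class were positive.

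Of 13 circRNAs from remodelling ATPases, which use ATP to move nucleosomes, 1 was called. CHD8 acts on chromatin of Wnt and neurodevelopmental target genes. Its circRNA_33804 (310 nt) had 59.8, 75.4 and 60.1 normalized counts at 120d and 53.4, 79.8 and 59.2 at 180d, against 23.9, 32.9 and 25.6 at 1d. The stage means were 26.7 ± 6.55 at 7d, 35.9 ± 2.42 at 14d and 56.4 ± 4.79 at 21d, and no library from 21d onward was as low as the highest of 1d. The log2 fold change was 1.23 ± 0.26 at 120d (adjusted p = 0.00114), 1.22 ± 0.26 at 180d (adjusted p = 0.00103) and 1.03 ± 0.27 at 21d (adjusted p = 0.0358), with a slope of 0.19 ± 0.03 (adjusted p = 1.02e-05). The 21d call stood close to both thresholds, and omission of any library of 1d or 21d ended it (adjusted p between 0.0608 and 0.16). Without the libraries of low valid-base share the adjusted p was 0.253 at 21d, 0.0948 at 120d and 0.258 at 180d, and after thinning 0.223, 0.0756 and 0.233. With table totals as the depth the log2 fold change was 0.96 at 120d and 0.97 at 180d, and with the valid-base covariate 0.97 at 120d, all under the minimum.

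The other ATPase circRNAs did not pass the test. CHD9 circRNA_29950, a single exon of 1620 nt, had 42.5 ± 10.6 normalized counts at 180d and 62.1 ± 7.77 at 1d, with overlapping libraries. SMARCA5, the ISWI ATPase, gave 4 circRNAs with means over all libraries between 5.80 and 12.8. The most abundant of them held 39.0%, 29.2% and 34.1% of the gene's counts in the 180d libraries, against 16.7%, 26.7% and 27.3% in the 1d libraries. The stage means of that share ran from 23.0% at 35d to 37.3% at 7d, and its usage did not pass the test along age (unadjusted p = 0.783 in edgeR). CHD7 also gave 4, of which 3 share an exon end with another. CHD7 circRNA_26451 (exons 35 to 36) had 13.6 ± 2.42 at 180d and 5.74 ± 2.62 at 1d without overlap, and its slope of 0.17 ± 0.07 did not pass the test (adjusted p = 0.067). Summed over the class, the level at 180d was 238 ± 5.61, against 212 ± 29.6 at 1d. This sum includes CHD8 circRNA_33804, which had 64.1 ± 13.9 at 180d and 27.5 ± 4.80 at 1d.

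**Figure D2:**
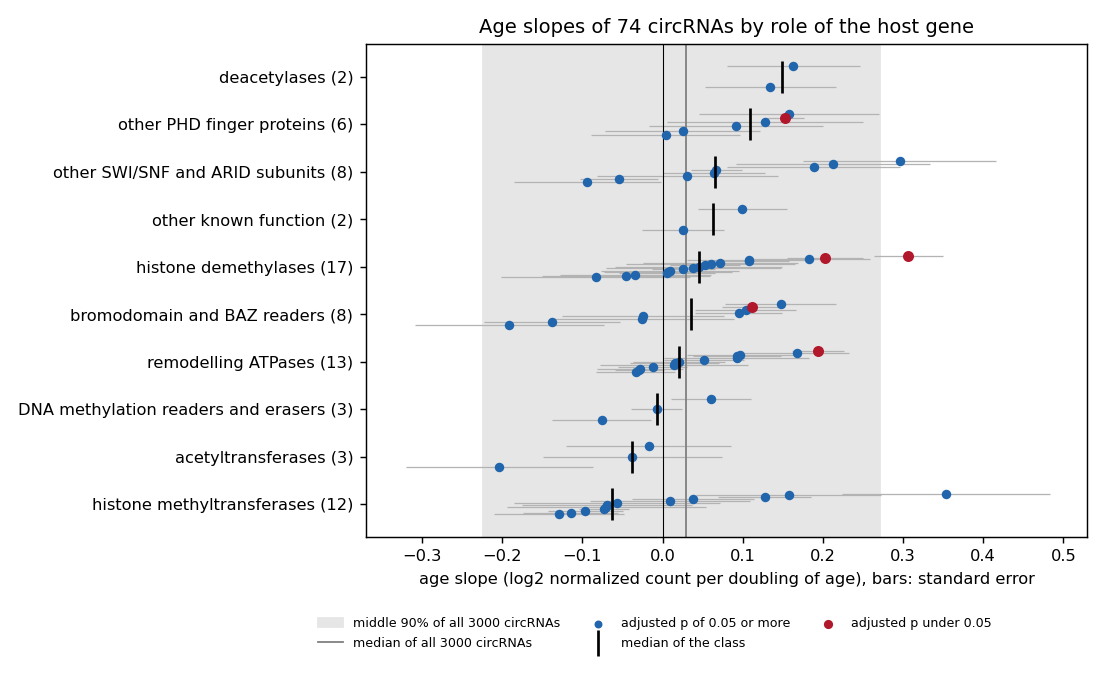
Age slope in log2 normalized count per doubling of age (x axis) of each of the 74 circRNAs, in rows by the role of the host gene with the number of circRNAs in brackets; bars are standard errors, vertical ticks class medians, red points an adjusted p under 0.05. The 5 red points, from 0.11 to 0.31, all lie to the right of 0, and the methyltransferases have the lowest class median at -0.06.

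Bromodomain and BAZ readers bind acetylated histones. BAZ2B circRNA_15831 (307 nt) had 58.7, 58.9 and 47.2 normalized counts at 180d and 35.3, 40.0 and 47.0 at 120d, against 23.9, 44.5 and 24.1 at 1d. The 180d libraries lay above those of 1d and the 120d libraries overlapped them. Its slope of 0.11 ± 0.04 had an adjusted p of 0.0306, and the call was lost under 12 of 33 alternatives. Omission of any of 5 libraries ended it (0.0537 to 0.0751; replicates 1 and 3 of 1d, replicate 1 of 7d, and replicates 1 and 2 of 180d). It was also lost without the libraries of low valid-base share (0.179), with the valid-base covariate (0.0509), after thinning (0.223), with table totals (0.177) or DESeq2 size factors (0.0635), with a filter on low counts (0.0646) and under the DESeq2 test (0.067). At 180d the log2 fold change of 0.82 ± 0.29 had an adjusted p of 0.054.

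Methyltransferases gave 12 circRNAs of 5 genes, 7 of them with a negative slope, and without SETD3, which acts on actin, 11 of 4 genes with 6 negative. The median slope was -0.06 with or without SETD3, against 0.029 over the whole table. SETD3 circRNA_34466 (682 nt, exons 2 to 6) had 40.6, 36.6 and 52.5 normalized counts at 180d and 88.0, 64.4 and 49.9 at 120d, against 59.7, 90.5 and 81.4 at 1d. Its 180d libraries lay below those of 1d, and its 120d libraries overlapped them. The log2 fold change at 180d was -0.84 ± 0.25 (adjusted p = 0.0191), under the fold change minimum. With clean reads as the depth it was 0.26 (adjusted p = 0.582), of the opposite sign and not called, where the median of the whole table was 1.27. With table totals the SETD3 change was -1.09 (adjusted p = 0.00143), past the minimum. The adjusted p was 0.204 without the libraries of low valid-base share and 0.15 after thinning. It was also above 0.05 when replicate 2 (0.116) or 3 (0.0732) of 1d or replicate 1 (0.0596) or 2 (0.106) of 180d was left out. KMT2C, which methylates H3K4 at enhancers, gave 5 circRNAs. KMT2C circRNA_19382 (exons 5 to 7) had 17.1, 20.8 and 30.0 at 180d and 16.01, 18.6 and 15.02 at 120d, against 7.96, 21.4 and 3.01 at 1d. Replicate 2 of 1d was as high as the old libraries, and the slope of 0.13 ± 0.06 did not pass the test (adjusted p = 0.123). It passed when that library was left out (0.0389) and with clean reads as the depth (1.6e-05). KMT2C circRNA_19408, from exons 24 to 27 of the same transcript, had 7.34 ± 4.91 at 180d and 13.2 ± 5.08 at 1d. KMT2A circRNA_37216 had the highest slope of the 74 (0.35 ± 0.13), but was listed at 0 in all 3 libraries of 7d and in 2 of 1d and did not pass the test (adjusted p = 0.0506).

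Counts summed per host gene were tested over all 1675 host genes. With age 8 of the 40 genes were called, against 23.2% of host genes. Of these, 6 rose (13.8% of host genes), 5 of them KDM7A, PHF21A, CHD8, KDM4C and BAZ2B, and 2 fell (9.37%), SETD2 and SETD3. CHD8, KDM4C and SETD3 had 1 circRNA each, so their summed counts were the counts of that circRNA. The calls of CHD8 and KDM4C therefore repeat those of their circRNAs. For SETD3 circRNA_34466 the slope in the fit of circRNAs was -0.07 ± 0.03 and was not called (adjusted p = 0.0994). The SETD3 call in the fit of host genes thus adds no further counts. SETD2 trimethylates H3K36 along transcribed genes. Its 3 circRNAs together had 18.1, 18.9 and 16.9 normalized counts at 180d, against 29.0, 31.7 and 31.1 at 1d, without overlap. The summed slope was -0.11 ± 0.04 for SETD2 (adjusted p = 0.0238) and -0.09 ± 0.03 for SETD3 (adjusted p = 0.0319), and both slopes were positive, at 0.13 and 0.16, with clean reads as the depth. SETD2 lost its call without replicate 3 of 120d (0.053) or of 180d (0.0591), and SETD3 without any of 5 libraries (0.0642 to 0.102; replicate 2 of 1d, replicate 3 of 120d and each of 180d). Without the libraries of low valid-base share the adjusted p was 0.411 for SETD2, 0.45 for SETD3, 0.179 for BAZ2B and 0.0996 for KDM4C. With the valid-base covariate it was 0.108 for SETD2 and 0.0613 for SETD3, and after thinning 0.119 for SETD2 and 0.215 for SETD3. Against 1d, 3 genes were called at 120d (7.82% of host genes) and 3 at 180d (11.9%), KDM7A, CHD8 and KDM4C at both. Other summed changes had an adjusted p under 0.05 but stayed under the minimum of 1. PHF21A was higher at 120d (0.86 ± 0.18, adjusted p = 0.000626) and 180d (0.82 ± 0.18, 0.000771). TET1 was lower at 120d (-0.69 ± 0.22, 0.0333) but not at 180d (-0.29 ± 0.22, 0.438), and SETD3 was lower at 180d (-0.90 ± 0.24, 0.00672).

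Among the remaining classes no circRNA was called. TET1 oxidises 5-methylcytosine, and its circRNA_13848 (2496 nt) had 67.9 ± 3.26 normalized counts at 180d and 70.7 ± 11.8 at 1d, with the lowest mean at 7d (41.0 ± 15.3). BRD7, a subunit of the PBAF remodelling complex, had 47.7 ± 3.14 for circRNA_29982 at 180d and 38.3 ± 12.6 at 1d. HDAC2, a histone deacetylase, had 8.13 ± 2.48 for circRNA_01115 at 180d and 5.33 ± 5.01 at 1d. KAT6B, an acetyltransferase, had 3.45 ± 3.77 for circRNA_14033 at 180d and 5.25 ± 4.56 at 1d, and KATNBL1 had 17.6 ± 5.75 for circRNA_33848 at 180d and 9.65 ± 4.08 at 1d. ARID4B, a subunit of a deacetylase complex, gave 3 circRNAs, the most abundant with 13.6 ± 8.60 at 180d and 20.3 ± 7.18 at 1d. PHF20, of an acetyltransferase complex, gave 3 with means over all libraries from 4.29 to 5.51. None of these differences passed the test, which does not show that the levels were equal.

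**Figure D3:**
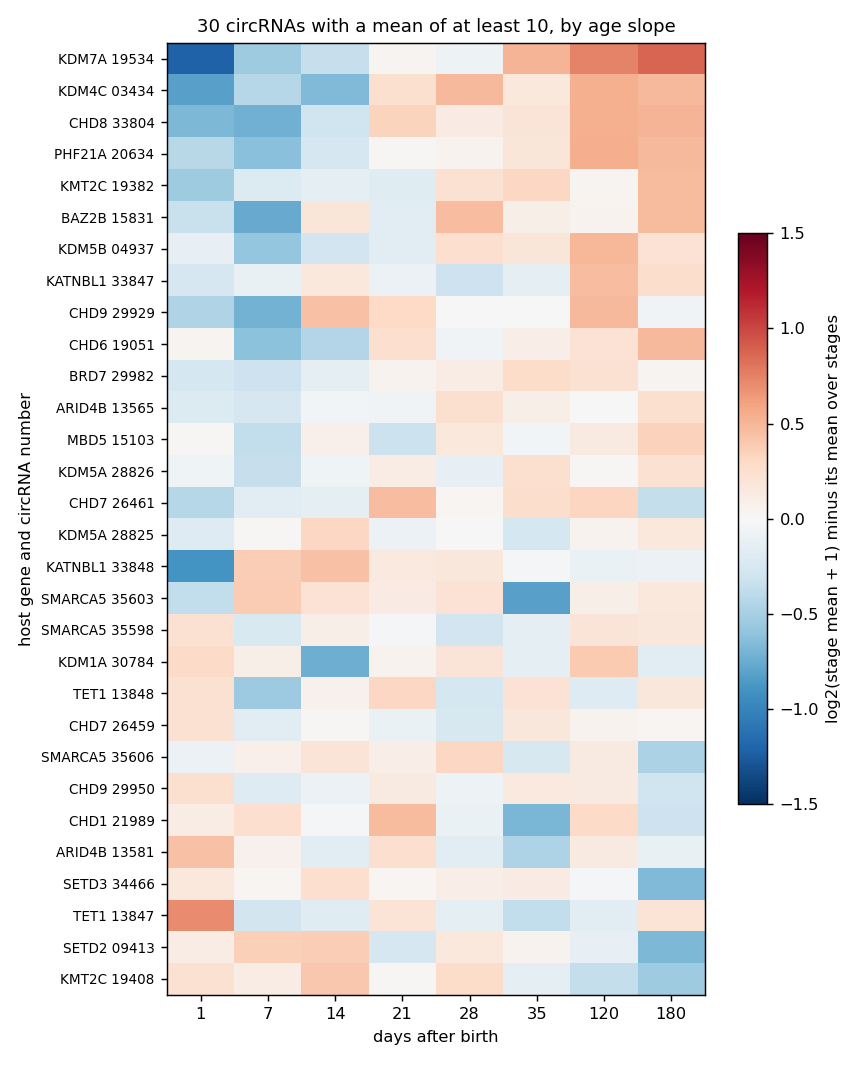
Stage means of 30 circRNAs with a mean of at least 10 normalized counts, as log2(mean + 1) minus the average of that value over the 8 stages (colour), by days after birth (columns), in order of the age slope (rows). KDM7A, in the top row, has its lowest value at 1d and its highest at 180d.

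The median slope of the 74 circRNAs was 0.035, against 0.029 in the whole table, and the middle 90% lay between -0.12 and 0.21, against -0.22 and 0.27. Every 120d library lay above every 1d library for 14 of the 74 (18.8% of the table) and below for 2 (8.9%). At 180d the groups did not overlap for 11 above (17.9% of the table) and 6 below (11.5%). The 74 circRNAs held 3.67% ± 0.07 of the back-splice reads of the table at 120d and 3.44% ± 0.09 at 180d, against 3.18% ± 0.29 at 1d, with a range of 2.79% to 3.75% over the 24 libraries. Reads were found for 56 to 74 of them in a library, and 33 had reads in all 24. The table lists no count of 1, so a value of 0 can stand for a single read. For the 32 with a mean of at least 10, the median coefficient of variation within a stage was 22.8%, against 27.8% for the 1000 such circRNAs of the table.

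Features of the circles that the rule did not use are given beside those of the whole table. The median length was 499.5 nt of annotated exons, against 432 nt, and the median GC content was 44.1%, against 43.3%. The shortest was from HDAC2 (202 nt) and the longest from TET1 (2496 nt). Host transcripts had a median of 24 exons, against 17, and 89.2% of the circRNAs joined 2 to 5 exons, against 79.1%. The circle began at exon 2 in 18.9%, against 27.4%. In 60 of 74 (81.1%) all bases were coding, against 81.0% of the annotated circRNAs in the table. Of these 60, 22 (36.7%) held a whole number of codons, against 35.9% of such circRNAs in the table. All 74 had AG and GT next to the back-splice ends, as did all 2848 circRNAs with a host gene. The calls used the GT-AG rule, so this feature could hardly differ. These comparisons are descriptions without a test.

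In 14 genes, 32 circRNAs formed 18 pairs that shared an exon end, and a further 4 pairs overlapped without one. PHF21A was the most uneven, with 98.6% ± 1.04 (SD over 24 libraries) of the gene's counts in circRNA_20634. In its rarer partner circRNA_20639 the same last exon is joined to exon 6 rather than exon 4, which gives a shorter circle (242 nt, against 395 nt). In KDM7A the share of circRNA_19534 was 91.3%, 95.7% and 95.3% in the 180d libraries, against 75.0%, 55.6% and 66.7% in the 1d libraries, where it rests on 9, 5 and 8 reads. The partner circRNA_19533 had 3.38 ± 0.772 normalized counts at 180d and 6.19 ± 0.339 at 1d. A test of isoform usage along age called none of the 55 circRNAs in genes with at least 2 (0.28% of 1786 tested in the table; 2 of 55, and 141 of the 1786, at an unadjusted p under 0.05), with an adjusted p of 0.239 for circRNA_19533. BAZ2B circRNA_15831 held 85.4% ± 0.843 of its gene's counts at 180d and 81.8% ± 7.93 at 1d.

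**Figure D4:**
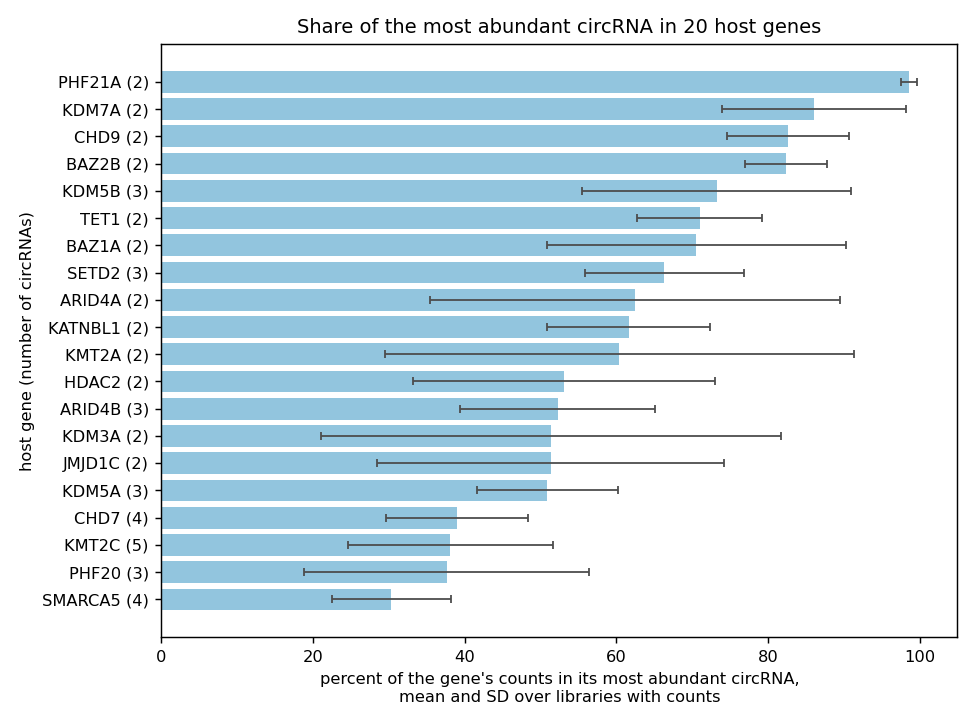
Percent of a host gene's back-splice counts in its most abundant circRNA (x axis, from 0) for 20 of the 21 genes with at least 2 circRNAs (rows, number of circRNAs in brackets); bars are means and whiskers SDs over the libraries with counts for that gene. PHF21A stands highest at 98.6% and SMARCA5 lowest at 30.3%.

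Of 125 further chromatin genes (including the 4 the rule left out), 49 had circRNAs in the table and were no members. By summed counts 4 rose with age (KMT2E, CHD2, PHC3 and TLK1; 13.8% of all host genes) and 5 fell (NSD2, EZH2, PBRM1, RBBP4 and ATAD2; 9.37%). EZH2, the H3K27 methyltransferase of Polycomb, had a slope of -0.23 ± 0.04 (adjusted p = 4.16e-05), and NSD2, which dimethylates H3K36, a slope of -0.33 ± 0.04 (adjusted p = 8.83e-07). The median slope of the 49 was 0.022. For other settings only the number of calls is given, not which of these genes kept theirs. With clean reads as the depth 39 of the 49 rose and 0 fell, without the libraries of low valid-base share 2 rose and 2 fell, with the valid-base covariate 3 rose and 2 fell, and after thinning 3 rose and 3 fell.

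Host genes that mark cell types also moved with age in the same libraries. Rises and falls are calls of the age slope of summed counts, and of all host genes 13.8% rose and 9.37% fell. The counts given here are on the TMM scale, and table totals or DESeq2 size factors gave the same number of falls. With clean reads as the depth 0 of the cell cycle genes and 1 of the erythroid genes fell and 1 erythroid gene rose. Of all 1675 host genes 5 fell and 1220 rose in that setting, while 79 fell with the valid-base covariate and 99 after thinning. Without the libraries of low valid-base share 2 cell cycle genes and 0 erythroid genes fell, and with the valid-base covariate or after thinning 6 and 2 did. Of 24 B cell markers 4 had circRNAs, and their summed level was 105.9 to 138.2 normalized counts at 120d and 88.2 to 127.0 at 180d, against 33.3 to 49.7 at 1d. BANK1, CD22 and RALGPS2 rose. AFF3 was not called, with 28.1 ± 0.211 at 120d and 14.1 ± 6.10 at 180d, against 16.7 ± 9.26 at 1d. Of 29 T and NK cell markers 2 had circRNAs, summing to 44.1 to 54.5 at 120d and 42.7 to 54.4 at 180d, against 4.66 to 14.5 at 1d, and CD96 rose. The other, LEF1, was not called, with 5.40 ± 2.73 at 120d and 8.13 ± 1.66 at 180d, against 5.95 ± 7.60 at 1d. Of 40 cell cycle genes 15 had circRNAs, summing to 110.7 to 161.6 at 120d and 57.6 to 88.4 at 180d, against 259.5 to 293.4 at 1d, and 9 fell. Of 22 erythroid markers 3 had circRNAs and all 3 fell, summing to 73.4 to 85.0 at 120d and 50.1 to 68.4 at 180d, against 135.2 to 170.0 at 1d. Of 27 stromal and endothelial markers only FLT1 had a circRNA, and 0 of 20 macrophage, 0 of 10 neuronal and 0 of 10 hepatocyte markers had any, so the tissue label could be checked only through the lymphocyte and erythroid genes and FLT1. In whole tissue, fewer cells of a type and less RNA per cell cannot be told apart, and the part of these shifts in the slopes of the 74 circRNAs was not tested.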

How the data were processed

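Spleen RNA of 24 Meishan pigs was sequenced, each pig giving 1 library. Per the labels, FastQC and cutadapt served for trimming, and TopHat2 is named. The methods give BWA for alignment (Sscrofa11.1) and CIRI2, with its GT-AG rule, for the circRNA calls. The values that the authors deposited are whole-number counts of back-splice reads for 3000 circRNAs, not normalized, and how the 3000 were chosen is not given in the sources used here. The labels and the methods name different extraction and library kits, so RNase R treatment was not settled.

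Counts were tested with edgeR 4.0.16 in R 4.3.3 (TMM, robust quasi-likelihood F test, two-sided), with 1 coefficient per stage or a slope on log2 age, and with diffSpliceDGE for isoform usage. Benjamini-Hochberg adjustment ran over all 3000 circRNAs, 1675 host genes or 1786 circRNAs. Calls needed an adjusted p under 0.05 and, between stages, a log2 fold change of 1 or more in size. The fits were tested on simulated counts with planted changes. At 180d against 1d, with the minimum of 1 applied, 11.9%, 59.7% and 68.2% of log2 changes of 1, 2 and 3 were called. For the age slope 41.8% of the smallest planted slopes and 95.5% and 100% of the larger ones were called. The larger planted slopes were steeper than any member slope, and the smallest was steeper than those of PHF21A, CHD8 and BAZ2B. A circRNA that did not pass can therefore still have changed. Without planted changes 0 of 3000 were called. Named circRNAs were those called in any test, filled up to 8 by the age-trend p among circRNAs with a mean of at least 10, the 8 most abundant, the most abundant of each class and genes with at least 3. The values of 1 member host gene and its circRNAs are not reported here, though they are included in all counts. Members and lists were chosen with earlier results of these data known. Alternatives were DESeq2 1.42.0 (test and size factors), clean reads or table totals as depth, filterByExpr, a replicate block, the valid-base share as covariate or minimum, thinning to 16273 reads, and omission of each library. Replicate libraries came from different pigs, so p-values of the fit by stage cover the spread between pigs of a stage. Those of the age slope also take in the departures of stages from a straight line on log2 age.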

Additional observations from a re-analysis of the deposited data

How the results depend on the processing

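The age slopes of KDM7A, PHF21A and CHD8 passed the threshold under all 33 alternatives, with a highest adjusted p of 0.00337, 0.0141 and 0.0167, and that of KDM4C under 31. With clean reads as depth, under which the median over the whole table became 1.99 (log2) for 120d and 1.27 for 180d (TMM 0.26 and 0.20, DESeq2 size factors 0.11 and 0.13, table totals -0.02 and -0.05), calls among the 74 numbered 1 for 14d, 18 for 21d, 10 for 28d, 24 for 35d, 51 for 120d, 25 for 180d, 55 with age and 43 in any stage, where the 3000 gave 85, 628, 431, 920, 1972, 1009, 1943 and 1515 in the same order. Of the 40 host genes 35, 20 and 33 were called at 120d, at 180d and with age, of all 1675 host genes 1257, 730 and 1225. It also turned SETD3 circRNA_34466 to 1.09 at 35d, 1.54 at 120d and 0.16 with age, and the summed slopes to 0.13 for SETD2 and 0.16 for SETD3. The 21d count was 0 under DESeq2 size factors, table totals, the DESeq2 test, filterByExpr, the valid-base covariate, the libraries with a valid-base share of at least 0.96, and thinning. At 21d the 3000 gave 20 calls with the covariate, 11 with table totals and 5 after thinning. With the covariate, 0 of the 74 were called at 35d and 1 at 120d (17 and 79 of the 3000). It gave 1 of the 40 host genes at 120d and 5 with age (64 and 227 of the 1675). With table totals, 1 of the 74 and 1 of the 40 host genes were called at 120d (134 of the 3000 and 132 of the 1675). The libraries of at least 0.96, which leave 1 library at 35d, 120d and 180d that is assumed to vary like the others, gave 0 at 35d, 0 at 180d, 3 with age and 2 in any stage, and 1, 0 and 4 host genes at 120d, at 180d and with age. Thinning gave 1 at 120d, 1 at 180d and 3 in any stage, and 1, 1 and 4 host genes at 120d, at 180d and with age. There the 3000 gave 77, 131 and 165, and the 1675 host genes 81, 115 and 203. In the whole table the calls in these tests were also fewer with the libraries of at least 0.96 than with all 24. Single calls also ended where no count is named here. The circRNAs of CHD8 and KDM4C lost their 120d calls with the libraries of at least 0.96. Those of KDM4C and BAZ2B lost their age calls after thinning. Omitting 1 library gave between 0 and 1 circRNAs for 21d, between 0 and 2 for 35d, between 2 and 4 for 120d, between 2 and 5 for 180d, 4 to 8 with age (8 without replicate 2 of 1d, which also gave 5 at 180d) and 4 to 6 in any stage, and 2 to 4 host genes at 120d, 1 to 4 at 180d (1 without its replicate 2) and 5 to 8 with age (5 without replicate 3 of 120d or replicate 1 of 180d). A replicate block gave 6 circRNAs with age and changed no other count; same-numbered libraries come from different pigs, and their correlations stayed under 0.1. In the whole table the split of calls at 120d was 139 higher and 44 lower with TMM, 88 and 55 with DESeq2 size factors, and 68 and 66 with table totals, and with age 322 and 173, 276 and 219, and 204 and 282. Apart from the settings named, the cause of these shifts was not tested. Circles with few reads, 42 of the 74 with a mean under 10, are limited by depth.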
